A study of Mus musculus with 18 samples.

Results

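The genes of the integrated stress response and the unfolded protein response were followed in mouse cortex and skull after ischemic injury. The 10 genes Atf3, Atf4, Atf6, Ddit3, Xbp1, Trib3, Asns, Chac1, Sesn2 and Ppp1r15a were taken by name from the deposited count table, which holds 25918 gene names, and all 10 were found in it. The table covers 18 libraries from BALB/c mice, 3 in each of 6 groups: cortex (labelled brain) at day 2 after ischemic injury, cortex at day 6, control cortex, skull (interparietal bone) at day 2, skull at day 4 and control skull. Per the labels, the injured tissue held the ischemic and the peri-ischemic region, and no genotype, drug or age is named. The labels do not say that each library came from a separate animal, so the p-values below measure the spread between libraries.

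Both responses are switched on by cell stress, such as the misfolding of proteins. In the integrated stress response, the kinases PERK, GCN2, PKR and HRI phosphorylate the initiation factor eIF2alpha, which lowers translation in general while the transcription factor ATF4 is translated more. ATF4 raises Ddit3 (CHOP), Atf3, Trib3, Asns, Chac1 and Sesn2, and Ppp1r15a (GADD34) brings a phosphatase to eIF2alpha that ends the response. In the unfolded protein response of the endoplasmic reticulum (ER), PERK is joined by IRE1, which splices the Xbp1 messenger RNA, and by ATF6, which is cut by proteases and then raises chaperone genes. Ischemia is a known trigger of these responses in brain. Counts per gene do not show the translation of Atf4, the splicing of Xbp1 or the cleavage of ATF6.

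Levels are given in CPM, a gene's read count relative to its library's total, with that total scaled by a TMM factor to put all 18 libraries on 1 scale. Changes are differences of log2 levels from edgeR, each ± its standard error. A gene is said to have risen or fallen where the p-value of edgeR's quasi-likelihood test, adjusted by Benjamini-Hochberg over all genes tested, was below 0.05. Libraries held 13005050 to 27654269 counts. The tissues matched their labels: the summed level of 8 neuronal markers was 9708 to 11980 CPM in control cortex and 656 to 977 CPM in control skull, and that of 7 osteoblast markers was 42.6 to 63.4 CPM in control cortex and 45740 to 90480 CPM in control skull. The neuronal sum in injured skull, 70.5 to 194 CPM at day 2 and 134 to 178 CPM at day 4, lay below that of control skull in every library. Why it lay lower was not tested. In such tissue, fewer cells of a type, less RNA per cell and other differences between samples cannot be told apart.

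The regulatory sequence of the ATF4 targets was read first. RefSeq promoter windows of 300 bases (250 before the start site and 50 from it on, build GRCm38.p6) were at hand for 9 of the 10 genes; none was used for Atf6. The composite C/EBP-ATF element through which ATF4 acts, searched as TGATGNAA on both strands, was in 4 of these 9 windows and in 3.97% of all 32851 promoter windows. The 4 windows, Atf3 (chr1:191183284-191183583, minus strand), Trib3 (chr2:152344011-152344310, minus strand), Asns (chr6:7693160-7693459, minus strand) and Chac1 (chr2:119350992-119351291, plus strand), are printed 5′ to 3′ on the strand of the gene because they belong to the genes with the largest changes in cortex or skull and to Chac1, which passed no test after injury. The match is in capitals.
Atf3: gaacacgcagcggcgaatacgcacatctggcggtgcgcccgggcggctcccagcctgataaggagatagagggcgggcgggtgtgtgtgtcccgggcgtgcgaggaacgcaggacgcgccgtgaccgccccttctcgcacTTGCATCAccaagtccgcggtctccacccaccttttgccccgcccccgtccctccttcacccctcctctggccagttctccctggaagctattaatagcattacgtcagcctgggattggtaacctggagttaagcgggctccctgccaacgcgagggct
Trib3: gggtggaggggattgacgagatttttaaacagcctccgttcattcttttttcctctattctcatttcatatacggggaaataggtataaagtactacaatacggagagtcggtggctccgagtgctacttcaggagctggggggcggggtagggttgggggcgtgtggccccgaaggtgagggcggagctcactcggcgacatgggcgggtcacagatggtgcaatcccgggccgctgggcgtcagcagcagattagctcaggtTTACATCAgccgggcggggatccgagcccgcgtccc
Asns: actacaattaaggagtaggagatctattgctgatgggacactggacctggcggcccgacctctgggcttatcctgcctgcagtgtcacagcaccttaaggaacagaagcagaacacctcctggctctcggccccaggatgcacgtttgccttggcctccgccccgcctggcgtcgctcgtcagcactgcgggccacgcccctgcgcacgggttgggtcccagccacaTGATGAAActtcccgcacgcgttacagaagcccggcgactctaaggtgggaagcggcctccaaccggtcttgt
Chac1: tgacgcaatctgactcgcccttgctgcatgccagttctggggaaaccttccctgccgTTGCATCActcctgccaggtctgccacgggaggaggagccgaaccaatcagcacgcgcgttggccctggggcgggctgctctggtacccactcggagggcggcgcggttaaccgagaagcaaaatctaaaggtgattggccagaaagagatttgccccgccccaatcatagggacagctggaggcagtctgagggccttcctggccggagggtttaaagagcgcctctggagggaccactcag
The match began 110 bases before the start site in Atf3, 23 bases before it in Asns, 193 bases before it in Chac1 and 14 bases after it in Trib3. The cyclic AMP response element TGACGTCA was in the Ppp1r15a window alone, 12 bases before the start site, and in 1.79% of all windows. The element TGACGTGG of XBP1 and ATF6 (0.676% of all windows) shares its first letters with the cyclic AMP element and was in 0 of the 9 windows, as were the ER stress elements ERSE, searched as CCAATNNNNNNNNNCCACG (0.119%), and ERSE-II (0.0365%). These are matches of letters and show no binding.

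In control tissue, the genes stood at different levels in cortex and skull. The labels do not say what the controls received. Of the 10 genes, 3 were higher in control cortex and 6 were lower, where 34.5% of all 18173 genes tested were higher and 36.4% lower. Asns, which makes asparagine, averaged 89.1 ± 2.38 CPM in control cortex and 24.8 ± 5.05 CPM in control skull (SD, n = 3 each), a log2 difference of 1.84 ± 0.14 (adjusted p = 2.67e-05). Atf6 (0.76 ± 0.19) and Chac1 (0.94 ± 0.26) were also higher in cortex (adjusted p = 0.00964 for Atf6 and 0.0146 for Chac1, the Chac1 p being 0.0521 without cortex control replicate 2). The genes lower in cortex were Atf3 (-4.26 ± 0.76), Trib3 (-3.59 ± 0.67), Ppp1r15a (-1.52 ± 0.12), Xbp1 (-1.42 ± 0.09), Atf4 (-0.87 ± 0.14) and Ddit3 (-0.67 ± 0.13). Sesn2 differed by -0.01 ± 0.17. The median over the 10 genes was -0.77, against -0.03 over all genes tested, which upper quartile scaling moved to -0.14. Per kilobase of exon, Atf4 was the most abundant of the 10 in every group, with 45.0 ± 1.43 CPM per kilobase in control cortex and 81.6 ± 12.6 in control skull. At the other end, Trib3 had 0.103 ± 0.114 CPM per kilobase in control cortex and 1.25 ± 0.34 in control skull, the lowest of the 10 in both.

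At day 2, injured cortex had more Atf3, Trib3, Ddit3 and Xbp1 and less Asns. These were 4 genes up and 1 down of 10, where 14.7% of all 18151 genes tested rose and 9.99% fell. Atf3 and Trib3, which were below 1 CPM in control cortex, rose 25.5-fold and 8.74-fold, while Ddit3, Xbp1 and Asns moved by less than 1 log2 unit. The median log2 change was 0.36 over the 10 genes and 0.00 over all genes tested. At day 6, 2 genes had risen, Atf3 and Trib3, and 0 had fallen, where 7.93% of all genes rose and 2.39% fell, and the median was 0.08. Between day 6 and day 2, 0 of the 10 passed edgeR's test, where 5.30% of all genes were higher at day 6 and 6.26% lower. In that comparison 2 genes, Ddit3 and Xbp1, had an unadjusted p below 0.05, both lower at day 6. DESeq2 and limma voom also called 0 of the 10 there, with 1 and 2 at an unadjusted p below 0.05. Both injured groups were compared with the same 3 control libraries.

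Cell markers also changed in these cortex comparisons. Of the 7 monocyte and macrophage markers, 6 were tested and 5 rose at day 2, with a summed level of 239.5 to 393 CPM at day 2, 502 to 1850 CPM at day 6 and 23.8 to 30.6 CPM in controls. Of the 8 neutrophil markers, 4 were tested and 3 rose at day 2, with 38.1 to 49.99 CPM at day 2, 1.76 to 5.54 CPM at day 6 and 1.11 to 2.46 CPM in controls, where Mpo was at 0. Of the 8 neuronal markers, 7 fell at day 2, with 6671 to 7597 CPM against 9708 to 11980 CPM in controls, and 1 fell at day 6. Of the 6 astrocyte markers, 3 rose and 1 fell at day 2, with 4392 to 5013 CPM against 1608 to 2171 CPM in controls. Of the 6 microglial markers, 2 rose and 2 fell at day 2 and 5 rose at day 6. Of the 6 fibroblast markers, 5 were tested and 3 rose at day 2 and 3 at day 6, with 252.8 to 354 CPM at day 2, 279.9 to 835 CPM at day 6 and 130.9 to 179 CPM in controls. Of the 7 erythroid markers, 6 were tested and 2 fell at day 2, with 29.6 to 41.0 CPM against 79.0 to 81.4 CPM in controls. Osteoblast markers, of which 5 of 7 were tested, rose in 0 cases at day 2 and in 2 at day 6. Their sum was 84.8 to 205 CPM at day 2, 253 to 1022 CPM at day 6 and 42.6 to 63.4 CPM in controls. The part of these cells in the changes of the stress genes was not tested.

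In skull at day 2, Trib3, Asns, Atf6 and Xbp1 rose and Ddit3 fell. These 4 up and 1 down of 10 stand against 17.8% of all 17450 genes tested that rose and 16.6% that fell, and the median log2 change was 0.22 over the 10 genes and -0.01 over all. At day 4, 0 of the 10 had risen and 1, Ddit3, had fallen, where 5.83% of all genes rose and 4.79% fell. By edgeR, 2 genes had an unadjusted p below 0.05 at day 4, Ddit3 and Atf3, both lower than in controls. Between day 4 and day 2, Trib3, Asns and Atf6 were lower at day 4 and 0 were higher, where 10.6% of all genes were higher and 11.1% lower. Both days share their 3 control libraries. Markers moved here as well: all 8 neuronal markers were lower at day 2 (the sums are given above), 5 of 7 B cell markers fell (56.9 to 66.7 CPM against 128 to 164 CPM in controls), and of the 7 plasma cell markers tested of 8, 2 rose and 5 fell (208.9 to 274 CPM against 247.5 to 262 CPM). Of the 8 neutrophil markers, 6 were higher at day 4 than in controls (3371 to 6371 CPM against 1034 to 1908 CPM). Of the 7 monocyte and macrophage markers, 2 rose at day 2 and 4 at day 4, with 974 to 1344 CPM at day 2, 1559 to 2265 CPM at day 4 and 865 to 1034 CPM in controls. Of the 7 osteoblast markers, 1 rose and 1 fell at day 2 and 3 rose at day 4, with 67400.0 to 87110.0 CPM at day 2, 108800.0 to 153200.0 CPM at day 4 and 45740 to 90480 CPM in controls. Of the 7 erythroid markers, 1 fell at day 2, with 1771 to 11120 CPM against 15330 to 20360 CPM in controls. No marker of these lists was at 0 in skull, and the part of these cells was not tested.

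**Figure D1:**
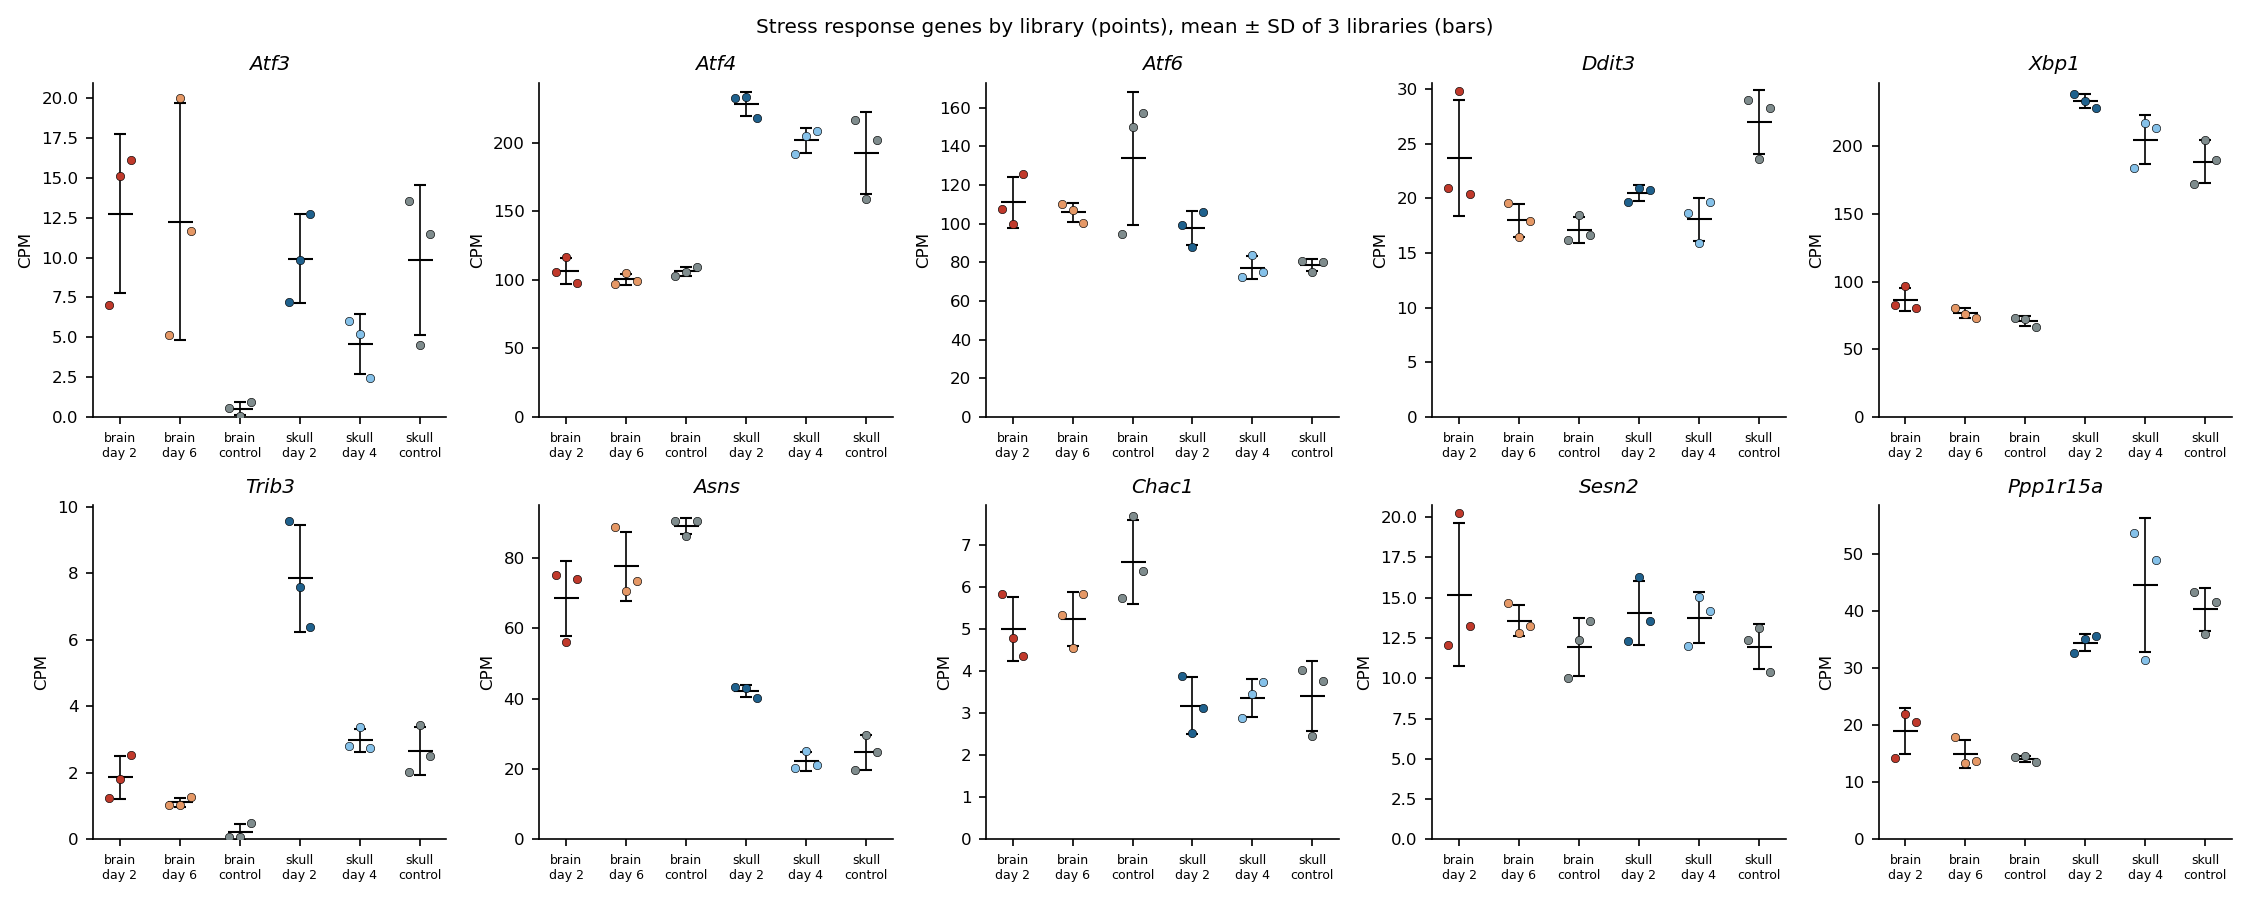
Level of each of the 10 genes in CPM (vertical axis, linear from 0) in every library, by group; points are libraries and bars the mean ± SD of 3. Atf3 and Trib3 were near 0 in control cortex, with all injured cortex libraries above, while Trib3 and Asns in skull were highest in the 3 day 2 libraries.

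**Figure D2:**
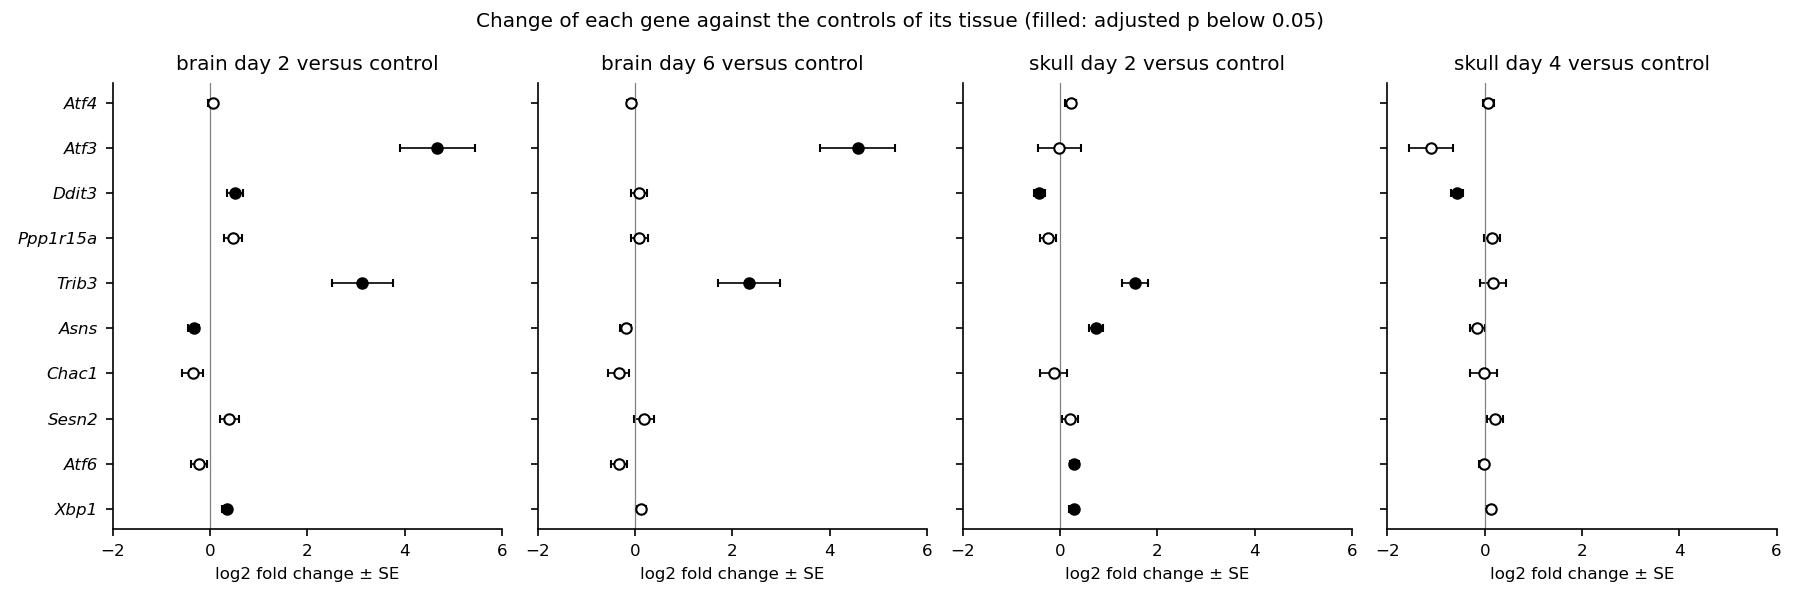
Log2 fold change ± standard error of the 10 genes at each day against the controls of the same tissue; filled points passed an adjusted p of 0.05. Atf3 changed by 4.67 in cortex at day 2 and by -0.01 in skull at day 2, and Atf4 passed the test in none of the 4 comparisons.

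Atf4 (chr15:80255184-80257541, plus strand, mm10), the transcription factor at the centre of the response, did not pass the test after injury in either tissue. Cortex had 105.6, 116.5 and 97.5 CPM at day 2, 96.7, 104.8 and 99.4 CPM at day 6 and 102.7, 106.0 and 109.5 CPM in controls. The cortex groups overlapped, and the log2 changes were 0.05 ± 0.09 at day 2 (adjusted p = 0.745) and -0.07 ± 0.09 at day 6 (adjusted p = 0.684). Skull had 232.7, 233.4 and 218.1 CPM at day 2, 191.4, 204.9 and 208.7 CPM at day 4 and 216.3, 159.0 and 201.6 CPM in controls. All 3 day 2 libraries lay above the skull controls, by a log2 change of 0.22 ± 0.11 that did not pass (adjusted p = 0.151).

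Atf3 (chr1:191170296-191218039, minus strand), a factor of the same family that is induced early by many stresses, showed the largest change of the 10. Its level was 7.04, 15.1 and 16.2 CPM in cortex at day 2, 5.13, 19.99 and 11.7 CPM at day 6 and 0.583, 0.0741 and 0.914 CPM in control cortex. Every injured library lay above every control, and the injured libraries spread widely. The log2 change was 4.67 ± 0.77 at day 2 (adjusted p = 0.00312) and 4.58 ± 0.77 at day 6 (adjusted p = 0.00758), and both calls held under every alternative run. In skull, Atf3 was at 7.21, 9.84 and 12.8 CPM at day 2, 6.03, 5.19 and 2.43 CPM at day 4 and 13.5, 4.52 and 11.5 CPM in controls, so the injured and control libraries overlapped. The skull changes were -0.01 ± 0.44 at day 2 (adjusted p = 0.987) and -1.11 ± 0.45 at day 4 (adjusted p = 0.149). Without skull control replicate 2, the lowest control, Atf3 passed the test as lower at day 4 (-1.46, adjusted p = 0.0242). In the order of the 6 mean levels, neighbouring groups overlapped except control cortex, which stood below every other library.

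Ddit3 (chr10:127290774-127296288, plus strand) encodes CHOP, a factor tied to cell death in prolonged ER stress. It moved in opposite directions in the 2 tissues. Cortex had 20.9, 29.8 and 20.4 CPM at day 2, 19.6, 16.5 and 17.9 CPM at day 6 and 16.2, 18.5 and 16.7 CPM in controls. All day 2 libraries exceeded all controls, led by replicate 2, and the log2 change was 0.51 ± 0.16 (adjusted p = 0.029). That call was lost without cortex day 2 replicate 2 (0.32, adjusted p = 0.14). It was also lost without any of the 3 controls (0.49 to 0.57, adjusted p = 0.0528 to 0.0922) and with the compared groups alone (0.52, adjusted p = 0.0505). Skull had 19.6, 21.0 and 20.8 CPM at day 2, 18.7, 15.9 and 19.7 CPM at day 4 and 29.0, 23.7 and 28.3 CPM in controls. Every injured skull library lay below every control, with changes of -0.42 ± 0.12 at day 2 (adjusted p = 0.0227) and -0.57 ± 0.12 at day 4 (adjusted p = 0.0213). The day 2 call was lost without day 2 replicate 1 or 3 or control replicate 1 or 3 (adjusted p = 0.0526 to 0.0757), and the day 4 call without day 4 replicate 2 or 3 or control replicate 3 (adjusted p = 0.0604 to 0.0905). Ddit3 shares 68 exon bases with Mars and 13 with Gm4189 on the opposite strand, and without a known strand setting those reads cannot be told apart. Mars, the methionyl-tRNA synthetase, changed by 0.14 in cortex at day 2 (adjusted p = 0.32) and rose by 0.45 in skull at day 2 (adjusted p = 0.011).

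Ppp1r15a (chr7:45522916-45526268, minus strand), the feedback regulator GADD34, passed the test in no comparison of injured with control tissue. Cortex had 14.4, 22.0 and 20.6 CPM at day 2, 17.9, 13.4 and 13.7 CPM at day 6 and 14.4, 14.6 and 13.5 CPM in controls. Replicate 1 at day 2 lay among the controls and the other day 2 libraries above them, with a change of 0.47 ± 0.18 (adjusted p = 0.0676), which was 0.64 without that library (adjusted p = 0.0101). Skull had 32.7, 35.1 and 35.6 CPM at day 2, 53.7, 31.4 and 48.9 CPM at day 4 and 43.3, 36.0 and 41.6 CPM in controls. All 3 skull day 2 libraries lay just below the skull controls. The skull changes were -0.25 ± 0.17 at day 2 (adjusted p = 0.288) and 0.15 ± 0.17 at day 4 (adjusted p = 0.611). Between day 4 and day 2 the difference was 0.40 ± 0.17 (adjusted p = 0.125), or 0.59 without day 4 replicate 2 (adjusted p = 0.00822). It shares 12 exon bases with Tulp2 on the opposite strand.

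Trib3 (chr2:152337422-152344032, minus strand), a pseudokinase that damps ATF4 and AKT signalling, rose in both tissues at day 2. In cortex it stood at 1.25, 1.81 and 2.55 CPM at day 2, 1.03, 1.04 and 1.28 CPM at day 6 and 0.0832, 0.0741 and 0.498 CPM in controls, where the counts were 2, 2 and 12. All injured libraries lay above all controls. The cortex changes were 3.13 ± 0.63 at day 2 (adjusted p = 0.0023) and 2.34 ± 0.64 at day 6 (adjusted p = 0.0315). The day 6 call was lost without day 6 replicate 2 or 3 or control replicate 1 or 2 (adjusted p = 0.0802 to 0.118). In skull it stood at 9.57, 7.58 and 6.38 CPM at day 2, 2.82, 3.38 and 2.74 CPM at day 4 and 2.01, 3.43 and 2.52 CPM in controls. The 3 day 2 libraries stood well above the other 6, which overlapped. The change at day 2 was 1.54 ± 0.26 (adjusted p = 0.00191), that at day 4 was 0.17 ± 0.26 (adjusted p = 0.719), and day 4 lay below day 2 by a log2 difference of -1.37 ± 0.26 (adjusted p = 0.00589). The calls at day 2 in both tissues and between the skull days held under every alternative run.

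Asns (chr6:7675169-7693254, minus strand), asparagine synthetase, is a classical ATF4 target of amino acid shortage, and its direction differed between tissues. Cortex had 75.2, 56.2 and 74.1 CPM at day 2, 88.9, 70.7 and 73.4 CPM at day 6 and 90.5, 86.3 and 90.4 CPM in controls. All day 2 libraries lay below all controls, with a change of -0.34 ± 0.12 that was just past the threshold (adjusted p = 0.0498). The call was lost without day 2 replicate 2 (-0.21, adjusted p = 0.204). It was lost too without any of the 3 controls (-0.36 to -0.31, adjusted p = 0.0938 to 0.123). Without day 6 replicate 2 or 3 it was also lost, with the change at -0.34 (adjusted p = 0.0541 and 0.0724). It was also lost with the compared groups alone (adjusted p = 0.0612) and without haemoglobin and the 20 most abundant genes (adjusted p = 0.0596). Skull had 43.3, 43.0 and 40.1 CPM at day 2, 20.3, 25.2 and 21.1 CPM at day 4 and 19.7, 29.8 and 24.9 CPM in controls. As with Trib3, the 3 skull day 2 libraries stood above the other 6. Asns rose by 0.75 ± 0.15 at day 2 (adjusted p = 0.00415), changed by -0.15 ± 0.15 at day 4 (adjusted p = 0.555) and was lower at day 4 than at day 2 by -0.90 ± 0.15 (adjusted p = 0.00326). The skull calls held under every alternative run. The skull day 2 level stayed below that of every cortex library.

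Chac1, which degrades glutathione, and Sesn2, a leucine sensor that restrains mTORC1, are ATF4 targets that passed no test after injury. Chac1 (chr2:119351229-119354381, plus strand) ranged over 4.36 to 5.85 CPM at day 2, 4.57 to 5.83 CPM at day 6 and 5.74 to 7.70 CPM in controls in cortex. In skull it ranged over 2.53 to 3.88 CPM at day 2, 2.88 to 3.76 CPM at day 4 and 2.47 to 4.02 CPM in controls. The groups overlapped within each tissue, and the log2 changes were -0.36 ± 0.21 in cortex at day 2 (adjusted p = 0.251) and -0.13 ± 0.27 in skull at day 2 (adjusted p = 0.744). Sesn2 (chr4:132492032-132510501, minus strand) ranged over 12.1 to 20.2 CPM in cortex at day 2, 12.8 to 14.7 CPM at day 6 and 9.99 to 13.5 CPM in controls. In skull it ranged over 12.3 to 16.3 CPM at day 2, 11.99 to 15.1 CPM at day 4 and 10.4 to 13.1 CPM in controls, and neighbouring groups in the order of its 6 mean levels overlapped throughout. Its changes were 0.39 ± 0.20 in cortex at day 2 (adjusted p = 0.177) and 0.21 ± 0.16 in skull at day 2 (adjusted p = 0.341).

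Xbp1 (chr11:5520659-5525893, plus strand), the factor made by IRE1 splicing, rose modestly in both tissues at day 2. Cortex had 83.1, 96.5 and 80.4 CPM at day 2, 80.2, 76.4 and 73.1 CPM at day 6 and 73.1, 72.7 and 66.6 CPM in controls. The day 2 libraries lay above those of both other groups, with a change of 0.34 ± 0.10 (adjusted p = 0.0193), lost without day 2 replicate 2 or control replicate 2 or 3 (adjusted p = 0.0515 to 0.0934). Skull had 238.6, 233.5 and 228.5 CPM at day 2, 184.3, 217.3 and 213.4 CPM at day 4 and 172.3, 204.6 and 189.6 CPM in controls. Here too the day 2 libraries were the highest, with a change of 0.29 ± 0.09 (adjusted p = 0.0362), lost without any of the 3 day 2 libraries or control replicate 1 or 3 (adjusted p = 0.0687 to 0.115) and under upper quartile scaling (adjusted p = 0.0523). Plasma cells are known for high Xbp1. The sum of their 8 markers was 19.99 to 32.4 CPM at day 2, 22.7 to 32.3 CPM at day 6 and 13.3 to 23.7 CPM in controls in cortex, where 1 of 5 tested rose at each day. In skull it was 208.9 to 274 CPM at day 2, 239.8 to 360.0 CPM at day 4 and 247.5 to 262 CPM in controls. Of 7 tested there, 2 rose and 5 fell at day 2 (median log2 change -2.01), and 2 rose and 0 fell at day 4. The part of these cells was not tested.

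Atf6 (chr1:170704674-170867771, minus strand), the membrane-bound ER sensor, rose in skull at day 2 and passed no test in cortex. Skull had 99.1, 88.1 and 105.9 CPM at day 2, 72.5, 83.9 and 75.3 CPM at day 4 and 80.7, 74.8 and 80.2 CPM in controls. The day 2 libraries lay above the other 6, with changes of 0.29 ± 0.09 against controls (adjusted p = 0.0345) and -0.31 ± 0.09 for day 4 against day 2 (adjusted p = 0.0387). The first call was lost without day 2 replicate 1 or 3 or any of the 3 controls (adjusted p = 0.0524 to 0.119), with the replicate block (0.0702) and with the compared groups alone (0.0513), and the second without day 2 replicate 1 or 3, day 4 replicate 1 or 3 or control replicate 3 (adjusted p = 0.0695 to 0.132) and with the block (0.0819). Cortex had 107.6, 99.8 and 125.7 CPM at day 2, 110.2, 107.1 and 100.5 CPM at day 6 and 94.4, 150.1 and 157.2 CPM in controls. Control replicate 1 lay below its fellows, and the groups overlapped. The cortex changes were -0.23 ± 0.16 at day 2 (adjusted p = 0.362) and -0.33 ± 0.16 at day 6 (adjusted p = 0.242), and without control replicate 1 they were -0.41 (adjusted p = 0.0148) and -0.50 (adjusted p = 0.0109).

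The day 2 responses of cortex and skull were compared directly, as the cortex change minus the skull change over the 12 libraries of both day 2 and both control groups. Of the 10 genes, 3 had the higher response in cortex and 1 the lower, where 14.0% of all 18863 genes tested were higher and 3.60% lower. Atf3 differed by 4.74 ± 0.86 (adjusted p = 0.00426), Ddit3 by 0.99 ± 0.22 (adjusted p = 0.0108) and Asns by -1.03 ± 0.19 (adjusted p = 0.00389), and these calls held under every alternative run. Ppp1r15a differed by 0.77 ± 0.22 (adjusted p = 0.03), a call that was lost without any 1 of 9 libraries (adjusted p = 0.053 to 0.0721) and held without cortex day 2 replicate 1, cortex control replicate 1 or skull control replicate 2. Trib3 differed by 1.64 ± 0.71 (adjusted p = 0.136), or 3.01 without cortex control replicate 3, its highest cortex control (adjusted p = 0.0115). Xbp1 differed by 0.10 ± 0.13 (adjusted p = 0.623). Atf6 differed by -0.46 ± 0.24 (adjusted p = 0.203), or -0.66 without cortex control replicate 1 (adjusted p = 0.0197). The median was 0.17 over the 10 genes and 0.20 over all genes tested. Of the 108 pathway genes tested, 9 had the higher response in cortex and 13 the lower, 22 in all, against 34 called by DESeq2. Cell markers differed in this contrast too. The higher response was in cortex for 4 of 8 neuronal, 5 of 7 monocyte and macrophage, 4 of 6 astrocyte and 4 of 7 tested plasma cell markers. The same held for 3 of 8 neutrophil, 2 of 6 microglial, 2 of 6 fibroblast and 2 of 7 B cell markers. Of the 7 osteoblast markers, 2 were higher and 1 lower. Their part was not tested.

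Around these 10 genes stand 110 others of the same pathways, in 8 lists by role, of which 108 were tested. The lists were chosen with earlier results of these data known. At day 2 in cortex 50 rose and 1 fell, with a median change of 0.30, and at day 2 in skull 66 rose and 2 fell, with a median of 0.49. Of all genes tested, 14.7% rose and 9.99% fell in cortex at day 2 (median 0.00), and 17.8% rose and 16.6% fell in skull at day 2 (median -0.01). Of 15 ER chaperones and folding enzymes, 14 rose in cortex at day 2 (median 0.74) and all 15 rose in skull at day 2 (median 1.09). Under the alternatives, 11 to 14 were called in cortex and 15 in skull. Hspa5 (BiP), the main ER chaperone, had 503.6, 501.3 and 456.8 CPM in cortex at day 2 against 260.5, 266.1 and 260.3 CPM in controls, a log2 change of 0.94 ± 0.09 (adjusted p = 7.1e-06). In skull it had 1608, 1500.0 and 1811 CPM at day 2 against 656.0, 699.8 and 662.6 CPM in controls, a change of 1.26 (adjusted p = 1.3e-04). By adjusted p, the first of the list in cortex beside Hspa5 were the disulfide isomerases Pdia4 (1.30), P4hb (1.25) and Pdia6 (0.85), and in skull Pdia4 (1.41), Pdia6 (1.32), Hsp90b1 (GRP94, 1.47) and Manf (1.02), a secreted ER stress protein. The largest log2 change of the list in cortex was that of Sdf2l1 (1.51), a partner of BiP, which was picked for its size. Hyou1, an ER relative of the HSP70 chaperones, changed by 0.23 in cortex without passing (adjusted p = 0.12) and rose by 0.91 in skull.

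The rise of the ER genes was smaller at the later days. In cortex at day 6, 6 of the 15 ER chaperones and folding enzymes had risen against controls, Pdia4 (0.77), Pdia3 (0.57), Calr (0.52), P4hb (0.75), Pdia6 (0.33) and Hspa5 (0.29), and 10 of 15 were lower than at day 2. That 10 was 6 without cortex day 2 replicate 3, day 6 replicate 1 or day 6 replicate 3. In skull at day 4, 6 of 15 had risen, Calr (0.64), Dnajb11 (0.34), Pdia6 (0.41), Manf (0.35), Pdia3 (0.43) and Pdia4 (0.41), and all 15 were lower than at day 2. The 6 was 2 with the replicate block, 1 with the compared groups alone, 1 without skull day 4 replicate 2, 0 without day 4 replicate 3, 3 without control replicate 1 and 0 without control replicate 3, while the 15 was 13 or more under every alternative. Over all 8 lists, 17 of 108 pathway genes had risen and 0 had fallen in cortex at day 6, where 7.93% of all genes rose and 2.39% fell. Against day 2, 1 was higher and 28 were lower, where 5.30% of all genes were higher and 6.26% lower. The 17 was 8 without day 6 replicate 2 or control replicate 2, 9 without day 6 replicate 3 and 10 without control replicate 3, and the 1 and 28 were 0 and 16 without day 6 replicate 1 and 0 and 15 without day 6 replicate 3. Over all genes, calls in cortex at day 6 were 1873, and 1005 without day 6 replicate 2. Between the cortex days they were 2099, and 910 without day 6 replicate 3. In skull at day 4, 16 had risen and 1, the translation regulator Impact, had fallen, where 5.83% of all genes rose and 4.79% fell. Against day 2, 4 were higher and 49 lower, where 10.6% of all genes were higher and 11.1% lower. The 17 called in skull at day 4 were 32 with DESeq2, 4 with the replicate block, 3 with the compared groups alone, 27 without day 4 replicate 1, 2 without day 4 replicate 2, 0 without day 4 replicate 3, 10 without control replicate 1 and 0 without control replicate 3. Calls over all genes moved as well in skull at day 4. They were 1853, 2842 with DESeq2, 765 with the replicate block, 1004 with the compared groups alone and 10 without control replicate 3.

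**Figure D3:**
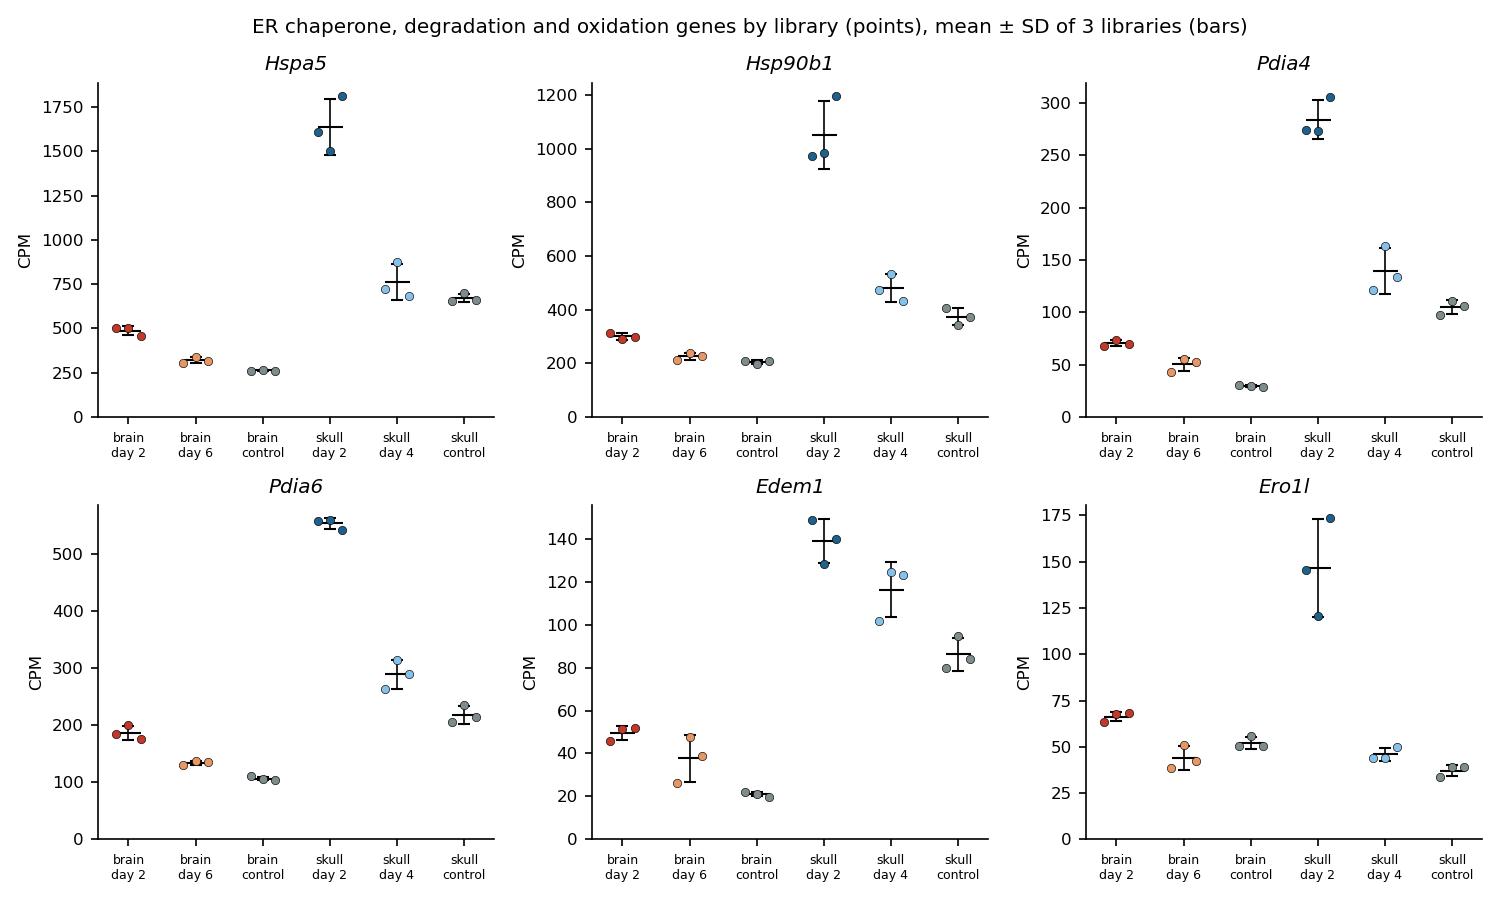
Level in CPM (vertical axis, linear from 0) of 6 ER genes in every library, by group; points are libraries and bars the mean ± SD of 3. In each tissue the day 2 libraries were the highest for all 6 genes, except that 1 cortex library at day 6 lay among those of day 2 for Edem1, and skull at day 2 reached 1811 CPM for Hspa5.

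Genes of ER-associated degradation and translocation, which move proteins into and out of the ER, rose in 8 of 17 cases in cortex at day 2, where 14.7% of all genes rose, and in 12 of 17 in skull at day 2, where 17.8% did. Edem1, which marks misfolded glycoproteins for disposal, had 45.8, 51.3 and 51.7 CPM in cortex at day 2 against 22.0, 21.3 and 19.9 CPM in controls, and 148.5, 128.0 and 140.0 CPM in skull at day 2 against 79.8, 94.8 and 83.9 CPM in controls. Its changes were 1.28 in cortex and 0.67 in skull. The translocon genes Ssr3 (0.76 and 0.96), Sec61a1 (0.64 and 0.78) and Sec61b (0.92 and 0.75) rose in cortex and in skull at day 2. Herpud1, a classical target of the unfolded protein response, changed by -0.10 in cortex (adjusted p = 0.62) and -0.14 in skull (adjusted p = 0.26) and was chosen after its values were seen. Among 10 sensors and ATF6-type factors, of which 9 were tested, 2 rose in cortex at day 2, Creb3l1 (1.17) and Creb3l2 (0.77), and 3 in skull, Ern1 (IRE1, 0.31), Creb3l1 (0.53) and Creb3l2 (0.24). The 2 became 1 without cortex day 2 replicate 2 or control replicate 3, and the 3 became 1 without skull day 2 replicate 1 or 3 or control replicate 3 and with the replicate block. Beside the 14.7% and 17.8% of all genes that rose, these counts are no result about the list.

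The genes listed as the amino acid arm of ATF4 rose in part, and what raised them was not tested. Of 18 genes of amino acid synthesis and transport, 7 rose and 0 fell in cortex at day 2, where 14.7% of all genes rose and 9.99% fell. The first by adjusted p were the transporters Slc1a4 (0.90), Slc1a5 (2.28) and Slc3a2 (0.57) and the mitochondrial folate enzyme Aldh1l2 (1.95). In skull at day 2, 11 rose and 1 fell, where 17.8% of all genes rose and 16.6% fell. The first by adjusted p were the serine synthesis enzyme Psat1 (1.03), the serine-glycine enzyme Shmt2 (0.74), Slc3a2 (0.49) and Slc1a4 (0.90). Psat1 had 59.0, 57.0 and 46.4 CPM in skull at day 2 against 24.3, 27.0 and 27.0 CPM in controls. The gene that fell was Slc38a2, a neutral amino acid transporter, with 634.9, 627.2 and 623.6 CPM at day 2 against 864.9, 1066 and 932.8 CPM in controls (-0.62, adjusted p = 0.0016). Psat1 was not among the 7 that rose in cortex. Between the tissues, 2 of the 18 had the higher day 2 response in cortex, Slc1a5 and Slc38a2, and 1 the lower, Psat1. Over all genes tested, 14.0% were higher and 3.60% lower. Of 12 aminoacyl-tRNA synthetases, 7 rose in skull at day 2, the first by adjusted p being Gars (0.87), Eprs (0.57), Iars (0.54) and Tars (0.58), and 11 were called without skull control replicate 2. In cortex 4 rose, Eprs (0.46), Lars (0.30), Tars (0.36) and Iars (0.27). That 4, beside 14.7% of all genes, was 1 with the compared groups alone and without cortex day 2 replicate 1 or 3 or control replicate 2 or 3, and 2 without day 6 replicate 3 or control replicate 1. Gars stood at 115.3, 99.0 and 107.7 CPM in cortex at day 2 against 114.8, 130.5 and 141.5 CPM in controls, and its response differed between the tissues by -1.03 (adjusted p = 5.5e-04).

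Other stress effectors rose in part in each tissue. Of 15 tested of 16, 8 rose and 1 fell in cortex at day 2, and 7 rose and 1 fell in skull at day 2. Of all genes, 14.7% rose and 9.99% fell in cortex, and 17.8% rose and 16.6% fell in skull. The 9 called in cortex were 5 without day 2 replicate 2 and 3 without control replicate 3. Nupr1, a small stress-induced chromatin protein, rose in both (1.61 and 1.06). Atf5, a factor related to ATF4, had 20.8, 27.6 and 18.7 CPM in cortex at day 2 against 11.5, 11.6 and 10.8 CPM in controls, and 50.5, 51.7 and 46.2 CPM in skull at day 2 against 51.9, 43.6 and 47.6 CPM in controls. It rose by 1.04 in cortex and changed by 0.03 in skull, and the responses differed by 1.06 (adjusted p = 0.0046). Ero1l, the oxidase that recharges the disulfide isomerases, had 145.4, 120.6 and 173.6 CPM in skull at day 2 against 33.6, 38.9 and 38.9 CPM in controls, a rise of 1.96. Its rise in cortex was 0.39, and the responses differed by -1.51 (adjusted p = 1.9e-04). At day 2, Bcl2l11 (BIM), which promotes cell death, rose in cortex (1.29), and Pmaip1 (NOXA) rose in skull (1.43). Bcl2l11 also rose in skull at day 4, with a mean of 46.0 CPM against 31.8 CPM at day 2 and 31.4 CPM in controls. The 2 genes of this list called in skull at day 4 against controls were 0 to 5 under the alternatives. Jdp2, a repressor related to ATF3, fell in cortex (-0.78) and rose in skull (0.49), and the responses differed by -1.21 (adjusted p = 0.016). Stc2, a secreted glycoprotein, fell in skull (-0.98).

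Upstream, 5 of 14 genes for the eIF2alpha kinases, eIF2 and eIF2B rose in cortex at day 2, where 14.7% of all genes rose, and 6 of 14 in skull at day 2, where 17.8% did. Eif2ak2 (PKR), the kinase that senses double-stranded RNA, had 32.8, 29.7 and 34.5 CPM in cortex at day 2 against 8.03, 10.6 and 10.9 CPM in controls, a rise of 1.76 (adjusted p = 8.2e-06). In skull at day 2 it had 50.1, 46.7 and 119.0 CPM against 37.4, 38.3 and 39.2 CPM in controls, where replicate 3 stood apart and the change did not pass (adjusted p = 0.068). Eif2s2 and Eif2s1, subunits of eIF2, rose in skull by 0.93 and 0.91. Of 8 mitochondrial chaperones and proteases, 5 rose in skull at day 2, of which Hspd1 (0.87) had the smallest adjusted p, and 2 in cortex, Hspd1 (0.50) and Hspe1 (0.34). The 2, which became 1 without cortex day 2 replicate 1 or control replicate 2 or 3, are near the 14.7% of all genes that rose.

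**Figure D4:**
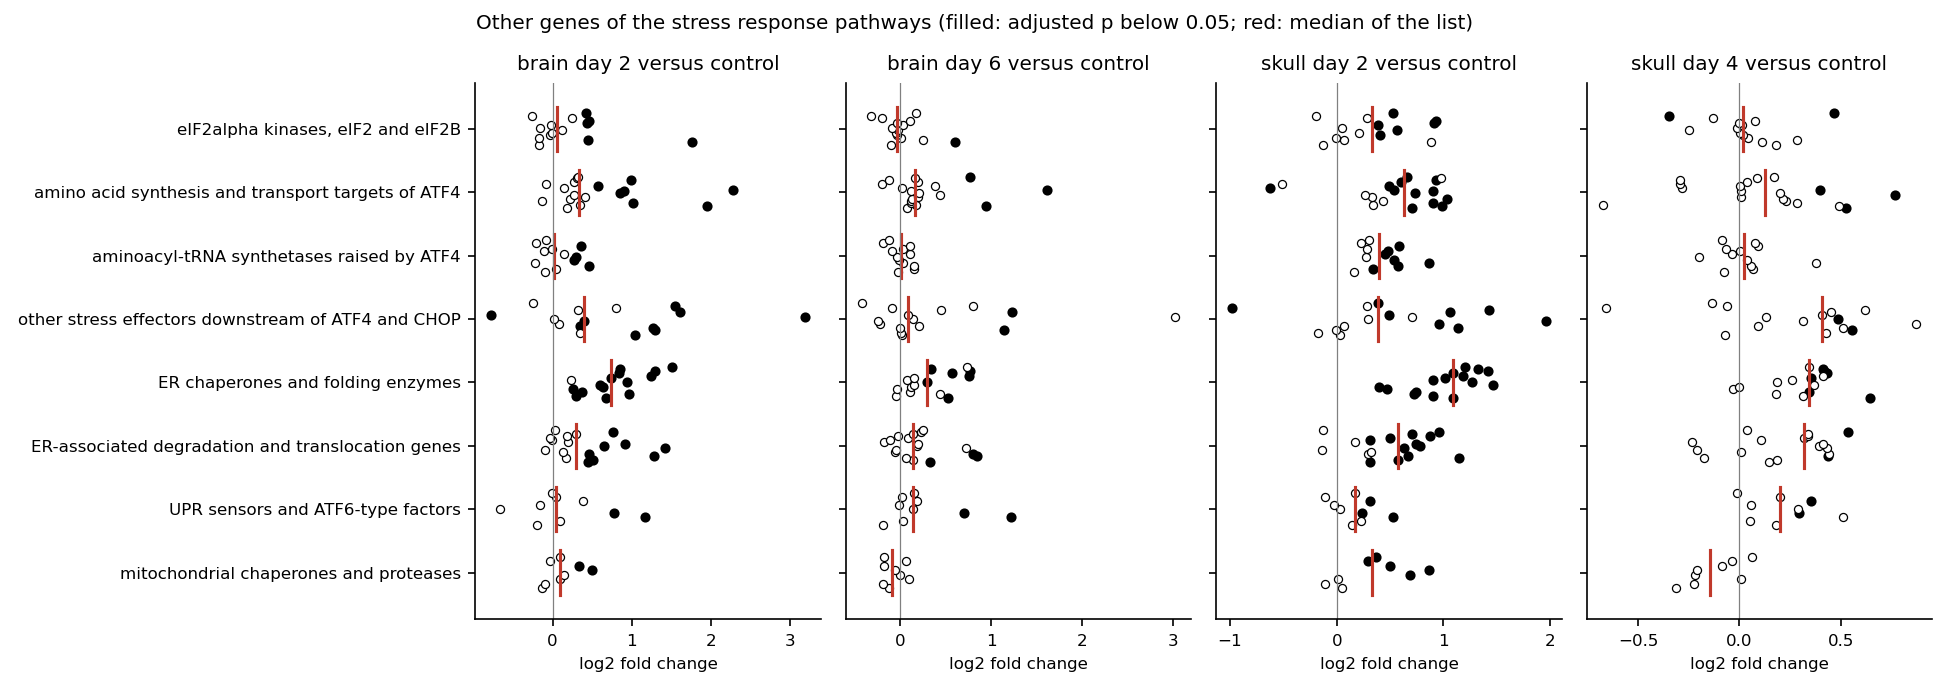
Log2 fold change (horizontal axis, its range set per panel) of the 108 tested pathway genes by list at each day against the controls of the same tissue; filled points passed an adjusted p of 0.05 and red bars are list medians. At day 2 the median of the ER chaperones was 0.74 in cortex and 1.09 in skull.

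The genes whose levels ran most like each of the 10 were sought over the 18 libraries, with each tissue centred on its own mean. Libraries of a group share their condition, so the 18 are not independent points, and differences between the groups of a tissue enter the correlation. Trib3 ran closest to Il4ra (Pearson r = 0.94), Timp1 (0.94) and Ccdc86 (0.94), and Atf3 to Tgif1 (0.92), Emp1 (0.92) and Hk2 (0.91). Asns ran closest to Ppa1 (0.96), Rbbp7 (0.94) and Fkbp1a (0.93), and Xbp1 to genes that included Rpl32 (0.94) and Sec61b (0.93). For Atf6 these were Slc30a4 (0.90), Luzp1 (0.90) and Epdr1 (0.87), for Atf4 Ubtd1 (0.85), Atxn1l (0.82) and Alkbh5 (0.82), and for Ddit3 Mpzl2 (0.84), Tubb2b (0.83) and Olig2 (0.83). Ppp1r15a had Cbx2 (0.83), Fhdc1 (0.81) and Slc20a2 (0.81), Chac1 had Kctd3 (0.80), Slc35e2 (0.79) and Ube2b (0.77), and Sesn2 had Bad (0.76), Slc4a2 (0.74) and Aven (0.73). Among the 10 themselves the highest value was 0.74, for Xbp1 and Trib3, and the lowest -0.62, for Asns and Ppp1r15a. Atf4 and Trib3 had 0.25.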

How the data were processed

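TRIzol RNA was cleared of DNA with DNase, selected for poly(A) tails and made into NEBNext Ultra II libraries for paired reads, per the labels' protocols. HISAT2 2.1.0 and mm10 are named in the submitters' processing notes; the program, annotation and strand mode used for counting were not given in the sources used here. What was deposited is a table of raw read counts per gene made by the authors, whole numbers with no normalization, in 26783 lines for 25918 names; 865 surplus identical copies were removed, and 0 columns were left unassigned.

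The counts were tested with edgeR 4.0.16 (R 4.3.3): filterByExpr, TMM factors, robust quasi-likelihood fits per tissue over 9 libraries, 12 for the difference of responses and 6 for the control groups, two-sided, adjusted by Benjamini-Hochberg over all genes. Standard errors are the log2 change divided by the root of F. Levels are CPM with TMM factors over 18 libraries; each test uses the factors of its own fit. The procedure was tested on simulated data. Alternatives were DESeq2 1.42.0, limma 3.58.1 (voom), other scalings and filters, a replicate block, and leaving out each library. Library totals of 13005050 to 27654269 counts leave genes of a few counts, such as Trib3 in control cortex, imprecise.

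The 10 genes and the lists were chosen with earlier results of these data known. All 10 are named; of each list, up to 4 called genes with the smallest adjusted p and those against their list were named, and further genes were chosen after their values were seen. Likeness used log2(CPM + 0.5) over 13479 genes with at least 5 CPM in a group; 1 gene found this way is not reported here. Positions of genes are from GENCODE on mm10, and promoters are from RefSeq on GRCm38.p6.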

Additional observations from a re-analysis of the deposited data

Results flagged for a closer look

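The day 2 responses of 4 genes were marked because they differed between the tissues by the test of that difference (cortex change minus skull change, edgeR's quasi-likelihood test over 12 libraries). The log2 difference was 4.74 for Atf3, 0.99 for Ddit3 and 0.77 for Ppp1r15a, each with the higher response in cortex, and -1.03 for Asns, with the lower response in cortex. Of all genes tested, 14.0% had the higher response in cortex and 3.60% the lower. Control levels also differed between the tissues for all 4 genes. Control cortex minus control skull was -4.26 for Atf3, -0.67 for Ddit3, -1.52 for Ppp1r15a and 1.84 for Asns. Of all genes tested, 34.5% were higher in control cortex and 36.4% lower, so such control differences were common. Atf3 averaged 0.523 CPM in control cortex and 9.84 CPM in control skull, and at day 2 12.8 CPM in cortex and 9.94 CPM in skull. How the control levels bear on the differences of response was not tested. For Atf3, Ddit3 and Asns the call held under every alternative run; for Ppp1r15a it was lost without any of 9 of the 12 libraries.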

How the results depend on the processing

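Of 1430 values of the 10 genes under alternatives, 34 changed sign, and 0 of these belonged to a call. With all libraries kept, 4 changed sign: Atf3 in skull at day 2 was 0.10 with limma voom and 0.068 with the replicate block, Chac1 in skull at day 4 was 0.010 with the replicate block, and Sesn2 between skull days was 0.0071 with upper quartile factors. With the compared groups fitted alone, 3 of the 10 were called in cortex at day 2 in place of 5. Over all genes, skull at day 4 gave 1853 calls, 2842 with DESeq2, 765 with the replicate block and 1004 with the compared groups alone; the cause was not tested.

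Leaving out 1 library at a time gave 2 to 6 calls of the 10 in cortex at day 2, 1 to 2 at day 6, 0 to 1 between these days, 2 to 5 in skull at day 2 and 0 to 2 at day 4. Calls over all genes ran from 1005 to 2198 in cortex at day 6, 910 to 2329 between the cortex days, 10 to 2537 in skull at day 4 (fewest without control replicate 3), 2260 to 4633 between the skull days and 2185 to 3979 for the difference of responses. Values whose sign depended on a library, none of them called, were as follows. In cortex, Atf4 at day 2 ran from -0.015 to 0.11, Ppp1r15a at day 6 from -0.055 to 0.16, and between the days Atf3 from -0.67 to 0.28, Sesn2 from -0.35 to 0.080 and Chac1 from -0.062 to 0.14. In skull, Atf3 at day 2 ran from -0.35 to 0.30 and Chac1 from -0.31 to 0.016, at day 4 Atf6 from -0.087 to 0.037, Chac1 from -0.23 to 0.12 and Atf4 from -0.065 to 0.17, and between the days Chac1 from -0.033 to 0.28 and Sesn2 from -0.091 to 0.11. In the difference of responses Sesn2 ran from -0.035 to 0.38, Atf4 from -0.23 to 0.021 and Chac1 from -0.33 to 0.029, and between the control groups Sesn2 ran from -0.11 to 0.12.

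Libraries of 1 number share no more than that number by the labels. Deviations of same-numbered libraries correlated at -0.049 to 0.29 in cortex and -0.48 to 0.16 in skull. In cortex 6 of 9 libraries, and in skull 2 of 9, were closest to one of their own number. The replicate block left the calls of the 10 in cortex at 5, 2 and 0, took Atf6 out in skull at day 2 (4 called) and between the skull days (2 called), and left 4 called in the difference of responses. Pathway genes called in skull at day 4 were 17, but 4 with the block and 0 without day 4 replicate 3 or control replicate 3. Over all genes, calls there were 1853, but 765 with the block and 10 without control replicate 3.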
